A study of Homo sapiens with 6 samples.

Results

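The S100 genes encode small calcium-binding proteins, and 10 of them were followed here in RNA sequencing of a metastatic breast cancer line with and without knockdown of MSLN. They were taken by gene symbol from the deposited expression table (S100A2, S100A4, S100A6, S100A8, S100A9, S100A10, S100A11, S100A14, S100A16 and S100P), and all 10 were found among its 17860 genes. Every sample was made of HCC1806/HM3 cells, obtained from the human breast cancer line HCC1806 by repeated selection for liver metastasis in mice and described in the labels as breast squamous carcinoma cells. The 3 shNC samples carried a lentiviral control shRNA, and the 3 shMSLN samples carried an shRNA against MSLN, which encodes the cell surface glycoprotein mesothelin. Both groups were drug-selected pools of stably infected cells grown in the same medium, and which of the available MSLN target sequences the sequenced cells carried is not stated. The labels do not say whether the replicates were separate cultures, so that the p-values given here measure only the spread between these samples, which may be technical.

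S100 proteins work mostly as dimers. Binding of calcium to their EF-hand loops opens a surface that grips target proteins such as annexins, cytoskeletal proteins and p53, and several members are also released from cells and act on receptors such as AGER (RAGE) and TLR4. Most of the genes lie in a cluster on the long arm of chromosome 1, next to the genes of the epidermal differentiation complex, and squamous epithelia are among the tissues in which many of them are active.

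In shMSLN cells the family did not move as a block. S100A9, S100A14 and S100A2 fell, S100A4 rose, and S100A6, S100A10, S100A11, S100A16 and S100P did not pass the test. S100A8 was close to absent and was not tested. The falls ran from 61.6% of the shNC level left for S100A2, through 49.6% for S100A14, to 28.8% for S100A9, while S100A4 reached 146% of its shNC level.

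Of the 9 members tested, 4 had an adjusted p below 0.05 in edgeR's quasi-likelihood test, which is 44.4% of them, beside 34.6% of all 14552 genes tested. With 9 genes, this share lies within a single gene or so of the background and says nothing particular about the family. Of the 9, 4 also had groups of CPM values that did not overlap, where 46.2% of all genes did. The 1 member that was higher and the 3 that were lower stand beside 16.6% and 18.0% of all genes. The median log2 fold change of the 9 members was 0.039, against 0.0019 over all genes, and the median size of the change was 0.17 against 0.14. The separate members differed more in rank. Only 0.0550% of all tested genes had a log2 fold change as low as that of S100A9 or lower, 0.715% as low as that of S100A14 and 1.84% as low as that of S100A2, and 5.83% had one as high as that of S100A4 or higher.

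The samples were of like depth, with between 17507837 and 18512135 estimated counts each, and MSLN itself ranged from 226 to 231 CPM in shNC samples and from 35.4 to 37.1 CPM in shMSLN samples. Here CPM is read counts relative to library size after TMM scaling of the libraries, a level that does not account for gene length. The deposited counts differed in form. Of counts above 100 reads, 47.7% lay within 0.005 of a whole number in each of shMSLN replicates 2 and 3 and between 3.36% and 7.02% in the other samples. All calls of S100 members named above were also made when shMSLN replicate 1 alone was set against the shNC samples. KRT5, a basal keratin, and KRT13 were abundant in both groups, at 2270 and 1619 CPM on average in shNC cells, whereas the basal keratin KRT14 was at only 3.53 ± 0.126 CPM (SD, n = 3). Of 12 squamous markers, 11 were tested. Of these 11, 6 were lower and 4 higher in shMSLN cells by edgeR, beside 18.0% and 16.6% of all genes. Among them KRT5, KRT6A and the desmosome gene PKP1 fell (log2 fold changes -0.38, -1.04 and -0.83, adjusted p = 1.40e-05, 4.12e-07 and 2.06e-09), and KRT13 and the desmosome gene DSG3 rose (0.36 and 0.84, adjusted p = 5.06e-07 and 1.73e-05). The summed level of the 11 ran from 4759 to 5188 CPM in shNC and from 4745 to 4827 CPM in shMSLN samples, and the part of these markers in the S100 changes was not tested. S100A8, S100A9 and S100P are also products of myeloid cells. Of 16 leukocyte and myeloid markers, 6 had no value in the shMSLN samples and at most 3 counts in any shNC sample, among them the neutrophil enzyme gene MPO with 0 counts in the shNC samples. The other 10 summed to between 14.8 and 15.2 CPM in shNC and between 12.8 and 13.4 CPM in shMSLN samples. Of the 6 of these that were tested, 1 was lower and 1 higher by edgeR, beside 18.0% and 16.6% of all genes. ITGB2, a leukocyte integrin subunit, fell from 6.08 ± 0.446 to 2.86 ± 0.325 CPM (adjusted p = 5.33e-05), and CSF3R, the receptor of a neutrophil growth factor, rose from 0.626 ± 0.0787 to 1.20 ± 0.136 CPM (SD, n = 3 each; adjusted p = 0.0205). The CSF3R call was lost without shNC replicate 2 or 3 or shMSLN replicate 2 or 3, with adjusted p from 0.0527 to 0.0834, and in DESeq2 (adjusted p = 0.113). The pan-leukocyte marker PTPRC was at 2.68 ± 0.461 and 2.95 ± 0.192 CPM in the 2 groups. The part of the summed difference in the level of S100A9 was not tested. In bulk RNA, fewer cells with a transcript and less of it per cell cannot be told apart.

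**Figure D1:**
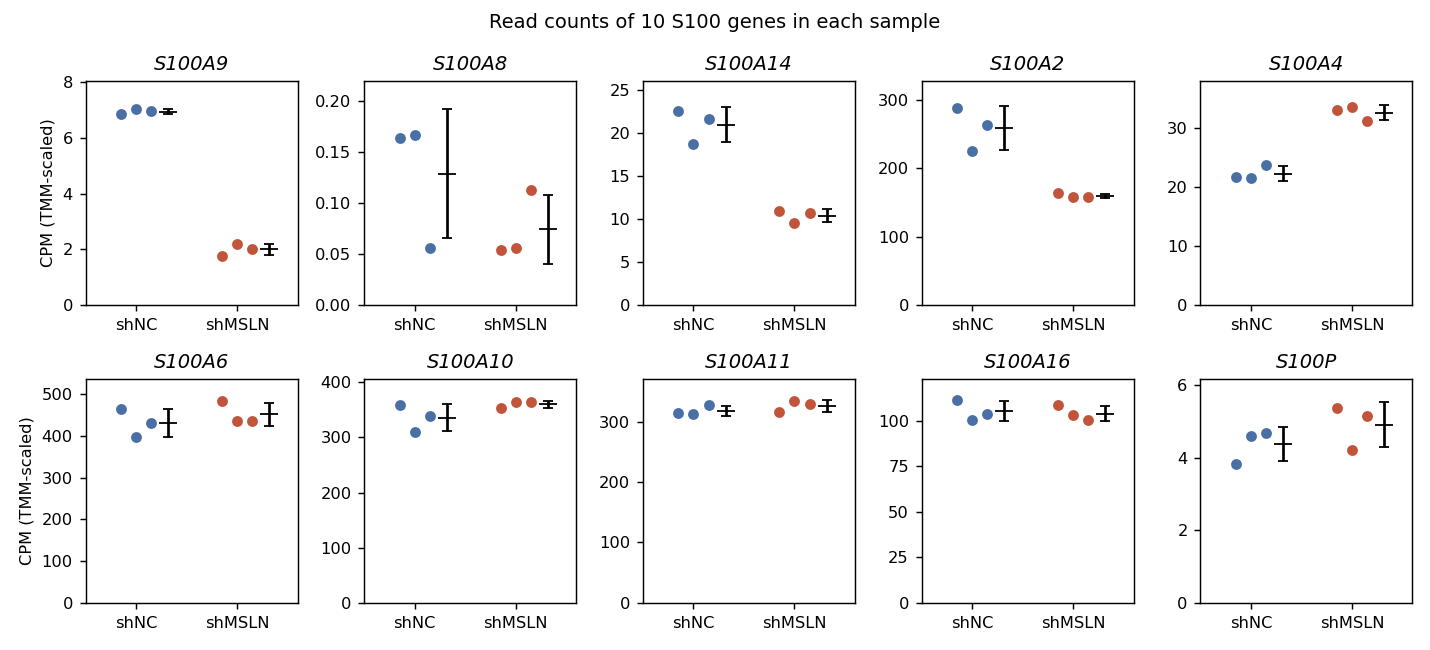
Level of each of the 10 S100 genes in TMM-scaled CPM (vertical axes from 0, a separate scale for each gene), with 1 point per sample and, beside the points of each group, the mean and SD of 3 samples. The shMSLN points lie below all shNC points for S100A9, S100A14 and S100A2 and above them for S100A4, and the groups overlap for the other 6 genes.

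S100A8 and S100A9 encode the subunits of calprotectin, a secreted heterodimer that binds calcium, zinc and manganese, restrains microbes and signals through TLR4 and AGER. S100A9 (NCBI Gene 6280, chr1:153357854-153361027 on the forward strand of GRCh38) was measured at 6.84, 7.04 and 6.96 CPM in shNC replicates 1, 2 and 3 and at 1.77, 2.19 and 2.03 CPM in shMSLN replicates 1, 2 and 3. The shNC samples were within a narrow range, and each shMSLN sample was far below each of them. S100A9 changed by -1.80 on the log2 scale (standard error 0.148, 95% interval -2.11 to -1.48, adjusted p = 3.57e-07 by edgeR), the largest change of any member tested. It rested on 125, 127 and 125 reads in the shNC samples and on 33, 39 and 36 reads in the shMSLN samples. A two-sided exact permutation test on these 6 values gave p = 0.1, the lowest that 3 samples against 3 allow, and this applies to every member whose groups do not overlap.

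S100A8 (NCBI Gene 6279, chr1:153390032-153391188, reverse strand) had 3, 3 and 1 reads in the shNC samples and 1, 1 and 2 in the shMSLN samples. All of these values are at or under the 3 counts, 0.161 to 0.169 CPM, that a count of 0 would still allow, so that no fold change is given and a difference was not detectable at this depth. This limit covers counting error only. S100A9 transcripts were therefore present with very few transcripts of their partner in both groups. Per unit of length, on the authors' TPM scale (relative transcript abundance), the S100A8 level was 0.0271 of the S100A9 level in shNC cells and 0.0547 in shMSLN cells, but with 1 to 3 reads behind each numerator this ratio carries no comparison.

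S100A14 encodes a member with an altered calcium-binding loop that is found at the margins of epithelial cells. The gene (NCBI Gene 57402, chr1:153614255-153616986, reverse strand) was at 22.6, 18.7 and 21.6 CPM in shNC replicates 1 to 3 and at 10.97, 9.59 and 10.7 CPM in shMSLN replicates 1 to 3. The highest shMSLN sample was below the lowest shNC sample. The fitted change was -1.01 on the log2 scale (standard error 0.090, 95% interval -1.20 to -0.82, adjusted p = 8.25e-07 by edgeR).

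S100A16 encodes a widely expressed member able to pair with S100A14, and its gene (NCBI Gene 140576, chr1:153606886-153613145, reverse strand) lies only 1109 bases from S100A14. Its level was 111, 100.5 and 104 CPM in shNC replicates 1 to 3 and 109, 103 and 100.2 CPM in shMSLN replicates 1 to 3. The groups overlapped over most of their range. The log2 fold change was -0.02 (95% interval -0.12 to 0.08, adjusted p = 0.807 by edgeR), and its sign turned to 0.011 under upper-quartile scaling, to 0.024 without shNC replicate 1, to 0.0089 without shMSLN replicate 3 and to 0.047 with shMSLN replicate 1 alone. The neighbouring genes thus differed in their change. On the TPM scale, the S100A14 level was 0.224 ± 0.0127 of the S100A16 level in shNC cells and 0.113 ± 0.00697 in shMSLN cells (SD, n = 3 each), a pair set side by side after the values were seen.

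S100A2 encodes a nuclear member found in the basal layer of squamous and breast epithelium that binds p53. It was the most abundant of the members that changed. S100A2 (NCBI Gene 6273, chr1:153561108-153567890, reverse strand) was at 289, 225 and 263 CPM in shNC replicates 1 to 3 and at 164, 157 and 158 CPM in shMSLN replicates 1 to 3. The shNC samples were spread by 12.3% of their mean (coefficient of variation) and the shMSLN samples by 2.08%, and no shMSLN sample reached the lowest shNC sample. On the log2 scale the change was -0.70 (standard error 0.066, 95% interval -0.84 to -0.56, adjusted p = 1.45e-06 by edgeR).

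Sequences before a RefSeq start site of each of the 3 members that fell are printed here. These genes share a direction, and the letters before their start sites can be compared. They are RefSeq promoter windows of GRCh38.p14, 5′ to 3′ on the strand of the gene, and capitals mark matches to the motifs searched. Bases that GENCODE release 29 places in an exon of a longer transcript were left off. These were 30 bases for S100A14 and 21 for S100A2, at the end next to the start. Both of these stretches lie within the span of their gene in that release, since longer transcripts start further upstream. The S100A9 stretch is chr1:153357604-153357853 (forward), that of S100A14 is chr1:153616356-153616575 (reverse) and that of S100A2 is chr1:153565866-153566094 (reverse).
S100A9: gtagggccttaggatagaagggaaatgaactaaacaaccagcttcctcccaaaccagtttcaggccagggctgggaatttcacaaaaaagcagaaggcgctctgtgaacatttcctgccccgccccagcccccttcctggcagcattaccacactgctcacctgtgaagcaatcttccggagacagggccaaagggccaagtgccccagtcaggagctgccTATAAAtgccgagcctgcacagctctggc
S100A14: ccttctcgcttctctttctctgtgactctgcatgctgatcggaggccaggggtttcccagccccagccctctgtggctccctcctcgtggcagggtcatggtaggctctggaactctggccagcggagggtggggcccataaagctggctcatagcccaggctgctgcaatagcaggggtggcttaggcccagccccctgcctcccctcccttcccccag
S100A2: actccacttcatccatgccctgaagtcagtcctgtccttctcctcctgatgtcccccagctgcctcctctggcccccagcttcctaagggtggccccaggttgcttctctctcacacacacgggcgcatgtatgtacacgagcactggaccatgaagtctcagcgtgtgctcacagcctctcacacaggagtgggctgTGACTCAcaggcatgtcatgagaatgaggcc

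All 10 members had a RefSeq window, 14 windows in all, and each was searched over the 250 bases before the start, on both strands, for 6 motifs. The shares given are per window and the counts per member, and some members had more than 1 window, so that they are not like measures. The TATA box (TATAAA) places the start of transcription in many regulated genes. It was found in 10.7% of all 35116 windows and in a window of 4 members. These were S100A9 at 29 bases before the start, S100A4 at 31, S100P at 28 and S100A8, with the same match in its overlapping windows 2 and 3. The AP-1 motif (TGANTCA), bound by FOS and JUN dimers, was in 6.57% of all windows and in that of S100A2 alone among the members, at 52 bases before the start of 1 of its 2 windows. The EGR motif (GCGNGGGCG) was in 8.41% of all windows and in that of S100A6 alone among the members, at 94 bases before the start. The C/EBP motif (TTNNGCAAT), the NF-kB motif and the ETS motif (CCGGAAGT) were in 2.04%, 1.73% and 3.42% of all windows and in 0 windows of the members. The S100A14 window held none of the 6 motifs. The 3 members that fell therefore had no motif of this set in common, and a match of letters is a description and not a bound site.

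S100A4, known as metastasin for its part in the spread of experimental tumors, binds the heavy chain of non-muscle myosin and is a frequent marker of motile cells. It was the only member called higher in the edgeR fit used throughout. S100A4 (NCBI Gene 6275, chr1:153543613-153550136, reverse strand) was at 21.6, 21.4 and 23.6 CPM in shNC replicates 1 to 3 and at 32.9, 33.5 and 31.1 CPM in shMSLN replicates 1 to 3. The lowest shMSLN sample was well above the highest shNC sample, and both groups were tight. S100A4 changed by 0.55 on the log2 scale (standard error 0.063, 95% interval 0.41 to 0.68, adjusted p = 1.11e-05 by edgeR). The S100A4 gene overlaps S100A3 on the same strand, so that some reads could be assigned to either gene. S100A3 was assigned 4 to 15 reads in each sample, and how shared reads were divided is not given in the sources used here. The part of such reads in the S100A4 change was not tested.

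S100A6, or calcyclin, is a growth-associated member that binds annexins and the ubiquitin ligase adaptor CACYBP, and its gene (NCBI Gene 6277, chr1:153534599-153536244, reverse strand) lies 7368 bases from S100A4. It was at 466, 399 and 431 CPM in shNC replicates 1 to 3 and at 484, 437 and 436 CPM in shMSLN replicates 1 to 3. The groups overlapped, with shNC replicate 2 the lowest and shMSLN replicate 1 the highest of the 6 samples. The log2 fold change was 0.07 (95% interval -0.05 to 0.18, adjusted p = 0.351 by edgeR), and without shNC replicate 1 it was 0.12 with an adjusted p of 0.0302. S100A4 on the TPM scale was 0.0439 ± 0.00388 of S100A6 in shNC cells and 0.0613 ± 0.00377 in shMSLN cells (SD, n = 3 each), another pair set side by side after the values were seen. The antisense transcript BX470102.1 overlaps S100A6, and the strand setting of the counting is not given in the sources used here.

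**Figure D2:**
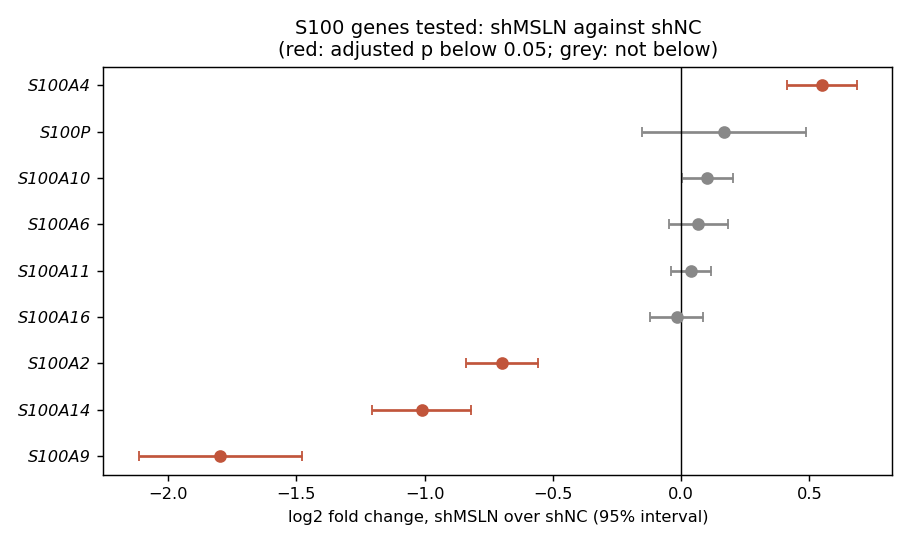
Log2 fold change of shMSLN over shNC for the 9 S100 genes tested, with 95% intervals from the edgeR fit on 3 samples per group. S100A9, S100A14 and S100A2 (red) lie below 0 and S100A4 (red) above it, and the 5 grey genes did not pass an adjusted p of 0.05.

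S100A10 is the member that has lost calcium binding and is held in its active form. It joins a pair of ANXA2 molecules in a tetramer at the plasma membrane that docks plasminogen, its activator PLAT and ion channels. S100A10 (NCBI Gene 6281, chr1:151982915-151994390, reverse strand) was at 358, 310 and 338 CPM in shNC replicates 1 to 3 and at 353, 364 and 364 CPM in shMSLN replicates 1 to 3. The groups overlapped because shNC replicate 1 stood above shMSLN replicate 1. A log2 fold change of 0.10 was fitted (95% interval, unadjusted, 0.0049 to 0.20, adjusted p = 0.0971 by edgeR). It passed the threshold at 0.15 without shNC replicate 1 (adjusted p = 0.00337) and at 0.13 under upper-quartile scaling (adjusted p = 0.0383).

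ANXA2 rose from 1222 ± 102 to 1438 ± 31.4 CPM (SD, n = 3 each; log2 fold change 0.24, adjusted p = 0.00148 by edgeR), a larger shift than that of its partner. Within each sample, the TPM level of S100A10 was 0.587, 0.601 and 0.610 of that of ANXA2 in shNC replicates 1 to 3 and 0.520, 0.558 and 0.559 in shMSLN replicates 1 to 3. The ratio was lower in every shMSLN sample than in any shNC sample, by -0.14 on the log2 scale (p = 0.1 by the exact permutation test). ANXA2 has processed pseudogenes of near-identical sequence, and how the authors' counting divided their reads is not given in the sources used here.

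S100A11, or calgizzarin, binds ANXA1 and takes part in the repair of the plasma membrane and in keratinocyte growth control. S100A11 (NCBI Gene 6282, chr1:152032506-152047907, reverse strand) was at 313, 312 and 327 CPM in shNC replicates 1 to 3 and at 315, 334 and 329 CPM in shMSLN replicates 1 to 3. All 6 samples lay close together, and the groups overlapped. The log2 fold change was 0.04 (95% interval -0.04 to 0.12, adjusted p = 0.448 by edgeR), a narrow interval around 0, and it was -0.0077 with shMSLN replicate 1 alone. The antisense transcript AL450992.1 overlaps the gene and 2 pseudogenes carry its name, none of them with a row in the table.

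S100P, a ligand of AGER that also activates the membrane linker ezrin, is the single member outside chromosome 1 (NCBI Gene 6286, chr4:6693069-6697170, forward strand). It was at 3.83, 4.60 and 4.68 CPM in shNC replicates 1 to 3 and at 5.38, 4.21 and 5.14 CPM in shMSLN replicates 1 to 3. The groups overlapped, and both varied by more than 10% of their mean, with coefficients of variation of 10.7% and 12.6%. The log2 fold change was 0.17 (95% interval -0.15 to 0.49, adjusted p = 0.412 by edgeR), so that at this depth a rise of up to 0.49 on the log2 scale lay within the interval.

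Levels of different genes were compared on the authors' TPM scale, which accounts for length. In shNC cells the order was led by S100A6 at 2350 ± 134 TPM, S100A11 at 1329 ± 33.8 TPM and S100A10 at 1159 ± 60.0 TPM (SD, n = 3 for each). These were followed by S100A2 at 612 ± 65.3 TPM, S100A16 at 199 ± 7.27 TPM and S100A4 at 103 ± 5.15 TPM. The lower end held S100A14 at 44.7 ± 3.40 TPM, S100A9 at 28.5 ± 1.01 TPM, S100P at 22.3 ± 2.67 TPM and S100A8 at 0.773 ± 0.385 TPM. The family thus spanned more than 3 orders of magnitude, but only through S100A8, which had 3, 3 and 1 reads in the shNC samples. The other members ran from 22.3 TPM for S100P to 2350 TPM for S100A6. In shNC cells the sample ranges of no neighbouring pair in this order overlapped.

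In shMSLN cells the first 6 places were held by the same genes in the same order. S100A2 stood at 386 ± 5.76 TPM and S100A4 at 154 ± 5.83 TPM, on either side of S100A16 at 201 ± 6.998 TPM. The order changed below them, where S100P at 25.6 ± 3.12 TPM stood above S100A14 at 22.8 ± 1.46 TPM, and these neighbours overlapped and did not differ beyond their spread (exact two-sided permutation test, p = 0.3). S100A9 followed at 8.40 ± 0.934 TPM and S100A8 at 0.460 ± 0.208 TPM.

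The summed level of the 10 members was 6078, 5601 and 5866 TPM in shNC replicates 1 to 3 and 6066, 5963 and 5941 TPM in shMSLN replicates 1 to 3. The groups overlapped (exact two-sided permutation test, p = 0.5). S100A6, S100A10 and S100A11 made up most of this sum, with S100A6 alone at 40.2% ± 0.724 in shNC and 42.0% ± 1.74 in shMSLN cells (SD, n = 3 each). The share of S100A2 went from 10.5% ± 0.694 to 6.45% ± 0.0426 and that of S100A4 from 1.76% ± 0.126 to 2.57% ± 0.0941, while S100A9 and S100A14 stayed below 1% of the sum in every sample.

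**Figure D3:**
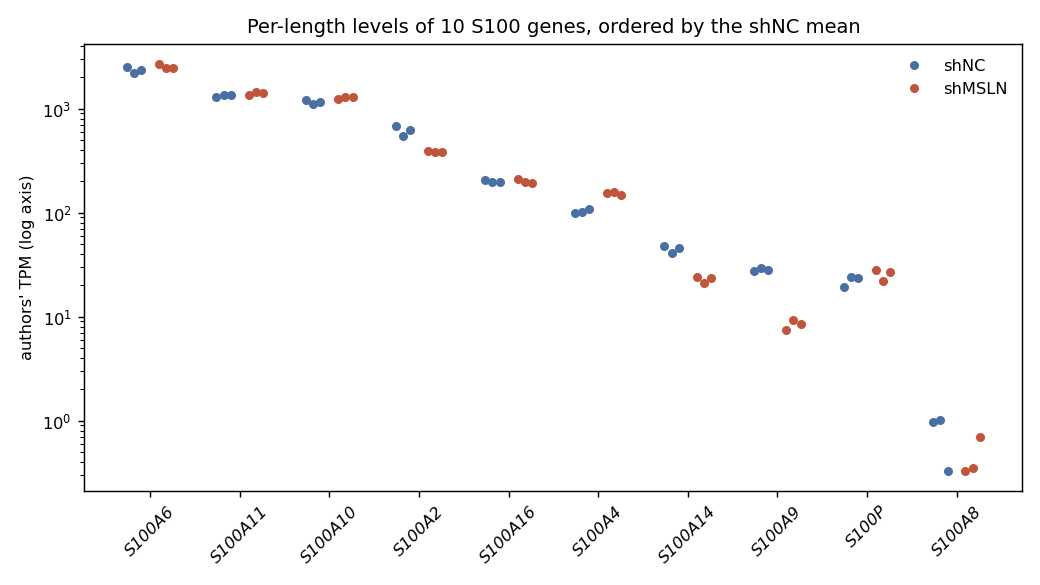
Level of the 10 S100 genes in the authors' TPM (log axis), ordered by the shNC mean, with 1 point per sample, 3 shNC and 3 shMSLN. S100A6, S100A11 and S100A10 are above 1000 TPM in every sample, and S100A8 is the lowest gene in all of them.

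Along chromosome 1 the 9 members of the cluster spanned 1634 kb, and members that changed stood among members that were not called. S100A10 and S100A11 lie together at one end, and S100A9 follows after a gap that holds the epidermal differentiation complex. At the other end, from S100A6 through S100A4, S100A2 and S100A16 to S100A14, the log2 fold changes were 0.07, 0.55, -0.70, -0.02 and -1.01 in the order of position. Among 28 other genes of the table that lie within the span, 4 were tested, of which 3 were higher and 0 lower with an adjusted p below 0.05 by edgeR, beside 16.6% and 18.0% of all genes. These were CRCT1, IVL and S100A5, whose call was lost under 8 of 15 alternatives, and the fourth was FLG, which had an unadjusted p of 0.049.

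**Figure D4:**
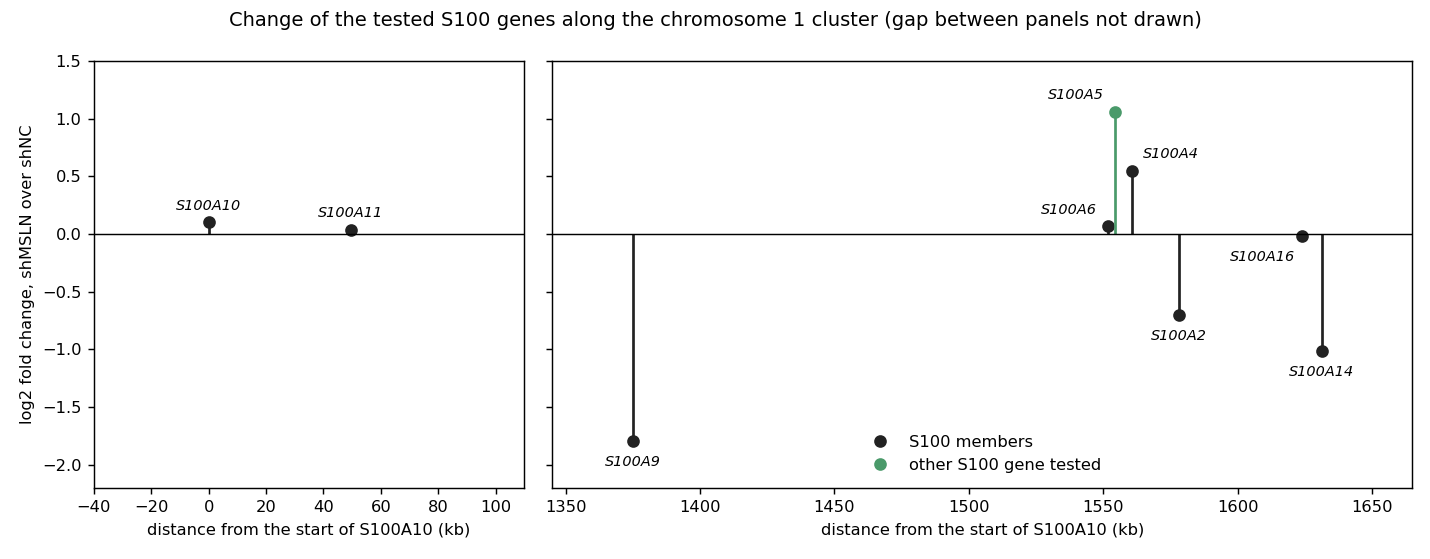
Log2 fold change of shMSLN over shNC for the S100 genes tested within the chromosome 1 span of the members (black, members; green, S100A5), against the distance in kb from the start of S100A10, with a stretch between the panels not drawn. S100A4 (up) lies between S100A6 (near 0) and S100A2 (down), and S100A14 (down) lies beside S100A16 (near 0).

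Of the remaining S100 genes with a value in every sample, S100A13 had the highest level and the others were below 2 CPM. S100A13, which helps to release FGF1 from cells, was at 29.7 ± 0.151 CPM under the control shRNA and 28.9 ± 2.19 CPM with the MSLN shRNA (SD, n = 3 each; log2 fold change -0.04, adjusted p = 0.693 by edgeR), and its sign turned to 0.020 without shMSLN replicate 3. S100A5 had 7, 5 and 9 reads in shNC replicates 1 to 3 and 14, 19 and 11 reads in shMSLN replicates 1 to 3. Its log2 fold change of 1.06 (standard error 0.381) had an adjusted p of 0.0434 by edgeR. This call was lost without any 1 of shNC replicates 1, 2 or 3 or shMSLN replicates 1 or 2, with adjusted p from 0.0575 to 0.193, and also under the looser filter of 1 count in any sample (adjusted p = 0.0529) and in DESeq2 (adjusted p = 0.163). Of the 8 other S100 genes in the table, S100A1, S100A3 and S100Z did not pass the filter on low counts, and S100A7, S100A12 and S100G had no value in the shMSLN samples and at most 1 read in any shNC sample.

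The fused-type S100 genes encode large proteins of the cornified layer of skin that begin with an S100 domain. Of 6 in the table only FLG, the filaggrin gene, was tested. It had 15, 11 and 9 reads in shNC replicates 1 to 3 and 5, 10 and 1 in shMSLN replicates 1 to 3, and shMSLN replicate 2 fell within the shNC range. FLG changed by -1.11 on the log2 scale (standard error 0.516, adjusted p = 0.111 by edgeR), so that 0 genes of this group were called and 1 had an unadjusted p below 0.05. Without shMSLN replicate 2 the adjusted p was 0.0340. Of 18 genes of the epidermal differentiation complex in the table, 4 were tested, 2 were higher and 0 were lower, beside 16.6% and 18.0% of all genes, and 4 genes are too few to set against these shares. IVL, which encodes the envelope protein involucrin, rose from 23.3 ± 1.52 to 30.01 ± 1.39 CPM (SD, n = 3 each; log2 fold change 0.36, adjusted p = 6.69e-04 by edgeR). CRCT1, a little-studied gene of the complex, rose from 0.331 ± 0.196 to 1.35 ± 0.399 CPM (log2 fold change 2.00, adjusted p = 0.00132 by edgeR). This rise rested on 10, 3 and 5 reads in shNC replicates 1 to 3 and 22, 19 and 32 reads in shMSLN replicates 1 to 3.

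The binding partners and receptors of S100 proteins moved in both directions. Of 26 in the table, 23 were tested, of which 5 were higher and 5 lower, and their median log2 fold change was -0.03, against 0.0019 over all genes. The share called, 10 of 23, stands beside the 34.6% of all genes given above. Among receptors, BSG (basigin, bound by S100A9) rose from 431 ± 33.5 to 589 ± 24.1 CPM (log2 fold change 0.45, adjusted p = 6.94e-06 by edgeR). MCAM, an adhesion molecule that also binds S100A8 and S100A9, rose from 9.33 ± 0.712 to 15.1 ± 0.623 CPM (log2 fold change 0.69, adjusted p = 3.08e-05 by edgeR). AGER, the best known S100 receptor, was at 4.35 ± 0.413 and 4.01 ± 0.425 CPM in shNC and shMSLN cells, with overlapping groups (log2 fold change -0.12, adjusted p = 0.585 by edgeR). TLR4, the receptor of calprotectin, was lower at 17.6 ± 1.02 against 20.4 ± 1.41 CPM (log2 fold change -0.22, adjusted p = 0.0375 by edgeR), a call that was lost without shNC replicate 2 or 3 or shMSLN replicate 1 or 2, with adjusted p from 0.0799 to 0.157.

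Among intracellular partners, MYH9, the myosin heavy chain bound by S100A4, rose from 688 ± 29.3 to 798 ± 8.20 CPM (log2 fold change 0.21, adjusted p = 3.90e-04 by edgeR), in the same direction as S100A4. TRPV6, a calcium channel brought to the membrane by S100A10 and ANXA2, rose from 4.44 ± 0.242 to 6.66 ± 0.628 CPM (log2 fold change 0.59, adjusted p = 0.00314 by edgeR). PLAT, the plasminogen activator that S100A10 can bind, fell from 23.8 ± 1.26 to 18.7 ± 1.31 CPM (log2 fold change -0.35, adjusted p = 0.00183 by edgeR). Of the annexins other than ANXA2, ANXA6 fell from 66.0 to 50.6 CPM (log2 fold change -0.38, standard error 0.045, adjusted p = 1.35e-05 by edgeR). ANXA1, the partner of S100A11, and ANXA11, a partner of S100A6, had log2 fold changes of -0.12 each (adjusted p = 0.0278 and 0.0152 by edgeR). The ANXA1 call was lost without shNC replicate 3 or any 1 shMSLN replicate, with adjusted p from 0.0775 to 0.102. The ANXA11 call was lost without shMSLN replicate 2 or 3, with adjusted p of 0.0689 and 0.105. Upper-quartile scaling also ended the calls of TLR4, ANXA1 and ANXA11 (adjusted p = 0.0657, 0.0891 and 0.0517), and DESeq2 that of TLR4 (adjusted p = 0.117). AHNAK, a giant scaffold protein that holds the S100A10 and ANXA2 complex, was at 1864 ± 55.1 and 1943 ± 12.7 CPM (log2 fold change 0.06, adjusted p = 0.160 by edgeR) and passed the threshold only under upper-quartile scaling (adjusted p = 0.0356).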

How the data were processed

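HCC1806/HM3 mRNA was enriched with oligo(dT) beads and sequenced by BGI. The authors deposited one table of estimated counts, FPKM and TPM per gene, and the submitters' processing notes name GRCh38.p13. The aligner, quantifier and annotation are not given in the sources used here. The deposited shMSLN columns held error marks in place of values for 1287 genes, which were left out, and 16573 genes were kept. The deposited TPM was used to compare genes, and FPKM with the counts to check gene lengths, which varied between samples by at most 1.03 times for the members.

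Estimated counts were rounded and tested in R 4.3.3 with edgeR 4.0.16 (TMM, filterByExpr, glmQLFit, glmQLFTest, no covariate, Benjamini-Hochberg over 14552 genes). Single values were compared by exact two-sided permutation tests (SciPy). Scripts were tested on simulated counts. Alternatives were RLE and upper-quartile scaling, filters of at least 1 count in any sample and of at least 10 counts in every sample, DESeq2 1.42.0, limma-voom (limma 3.58.1), robust estimation, a block for the replicate number, missing values as 0 counts and leaving out each sample. Setting shMSLN replicate 1 alone against shNC was chosen after seeing the data. Genes named were the members, MSLN and tested genes of the lists of S100 relatives, partners and the epidermal differentiation complex, and the squamous and leukocyte markers given by name, singled out after their values were seen. The members and lists were chosen with earlier results of these data known. Gene positions are those of GENCODE release 29 (GRCh38), and the authors may have used another annotation.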

Additional observations from a re-analysis of the deposited data

How the results depend on the processing

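S100A9, S100A14, S100A2 and S100A4 kept their direction and their call under all 16 alternatives each. Leaving out 1 sample at a time gave log2 fold changes of -1.86 to -1.72, -1.09 to -0.95, -0.79 to -0.61 and 0.52 to 0.59. The number of members called ran from 4 to 6. It was 5 with the replicate number as a block, through S100A10 (log2 fold change 0.10, adjusted p = 0.0442 by edgeR). The labels do not say whether the same numbers pair the samples. The same-numbered samples' deviations had weak correlations of 0.165, 0.0764 and 0.0718, and each sample correlated best with its own number. The block moved the number of all genes called from 5032 to 5789.

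With shMSLN replicate 1 alone against shNC, where the lone sample is assumed to vary like the others, 1797 genes were called, 6 partners and receptors, 1 gene of the epidermal differentiation complex and 0 other S100 genes. PLAT, CRCT1, TLR4, ANXA1, ANXA11 and S100A5 were among the named genes that lost their calls in that comparison. The log2 fold changes there were -0.26 for PLAT, -0.22 for TLR4, -0.14 for ANXA1, -0.084 for ANXA11 and 0.95 for S100A5. S100A13 turned to 0.066, S100A11 to -0.0077 and S100A16 to 0.047. S100A16 turned to 0.011 under upper-quartile scaling. With a sample left out, S100A16 ran from -0.052 to 0.024 and S100A13 from -0.093 to 0.020. The complex had 1 gene called at 10 counts or more in every sample, a filter that CRCT1 and S100A5 did not pass and under which they were not tested. Other S100 genes had 0 called by edgeR under the looser and the stricter filter and by DESeq2, and 0 to 1 with a sample left out, as had the fused-type genes. The cause of the changes outside the stricter filter was not tested. Of 429 alternative values of the other genes named, 392 kept direction and side of the threshold. S100A8, with at most 3 reads per sample, is limited by depth, and S100A9, S100P, S100A5 and CRCT1 by counting error.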
